A study of Mus musculus with 6 samples.

Results

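The 45 genes examined here are interferon-stimulated genes, a set chosen by gene symbol for their known induction by interferon. The set was chosen with earlier results of these data known, so its counts beside the background of all genes are a description. Of the 45 genes, 43 had a row in the deposited table of 17830 genes, and Mx1 and Mx2 were not analysed here. All 43 passed the filter on low counts, which left 13484 genes for testing. The RNA came from skull bone cells labelled as osteoblasts, which the labels describe as cultured from calvarial bone chips and purified for tdTomato by flow cytometry, without giving the order of these steps. The control group was mOCN-Cre;Ai9 and the other group TgAPPswe mOCN-Cre;Ai9, written APPswe here, with 3 libraries each from mice of 6 months of age that the study describes as male. In both groups Cre is expressed from the osteocalcin gene and switches on the tdTomato reporter Ai9, so the controls carry Cre and the reporter too. APPswe mice carry in addition a Cre-dependent transgene for human APP with the Swedish mutation, driven by the CAG promoter. Because that promoter is active in any cell in which Cre has acted, its level is not that of the endogenous gene. The labels do not say whether the libraries came from separate mice or cultures, so p-values measure the spread between these libraries only.

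Type I interferons bind the receptor pair IFNAR1 and IFNAR2, whose kinases JAK1 and TYK2 phosphorylate STAT proteins. STAT2 and IRF9 take part in the complex ISGF3, which binds interferon-stimulated response elements (ISRE) in the promoters of antiviral genes. Interferon gamma acts mainly through gamma-activated sites (GAS). In bone, interferon signaling is known to restrain osteoclast formation, and macrophages and stromal cells both express interferon-stimulated genes.

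The libraries held between 17263757 and 18398392 counts, and 3 counts, taken as the limit of detection, corresponded to 0.167 to 0.173 CPM (counts scaled to library size). This limit covers counting error only. Control replicate 2 stood apart from the other libraries. It had 1 count of the osteoblast gene Bglap, and 2 counts over 4 Y-linked genes against 2257 to 3406 in the other 5 libraries. Fits were therefore made with all 6 libraries and again without control replicate 2, and where 2 log2 fold changes follow a gene the second is without that library. The labelled cell type was checked against 12 osteoblast markers, whose median level was 1.12 CPM in control replicate 2 and 14.0 to 17.5 CPM in the other libraries. Macrophage markers were abundant in every library, with Lyz2 at 14800, 9770 and 16100 CPM in the controls and 7150, 7840 and 7880 CPM in APPswe. The libraries are bulk samples, in which fewer cells of a type and less RNA per cell cannot be told apart.

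Interferon response elements were searched in the RefSeq promoters (GRCm38.p6, 250 bases before to 50 bases after each transcript start), which were at hand for 34 of the 43 genes. The table had no entry for Usp18, Dhx58, Zbp1, Ifi204, Oas2, Rtp4, Ifi27l2a, Parp14 and Iigp1. An ISRE motif, searched on either strand as GAAA, any 2 bases and GAAA again, was present in 21 of the 34 genes (61.8%), compared with 3.85% of the 10731 tested genes with a promoter. A GAS motif, TTCNNNGAA, which reads the same on both strands, was present in 12 of the 34 (35.3%), compared with 8.24% of tested genes. At least 1 of the motifs was found in 25 (73.5%), compared with 11.6%. An ISRE was present in 3 of the 4 IFIT genes and in 7 of 8 GTPase genes. The sequences of 4 genes are shown because they span the response described below. Ifit3, Ifit1 and Irgm1 passed the test of genotype, as lower in APPswe, whichever library was left out. Rsad2 was the gene most elevated in control replicate 2. Each line gives the 200 bases before the start, 5′ to 3′ along the gene, with ISRE matches in capitals.
Ifit3, chr19:34583329-34583528, plus strand: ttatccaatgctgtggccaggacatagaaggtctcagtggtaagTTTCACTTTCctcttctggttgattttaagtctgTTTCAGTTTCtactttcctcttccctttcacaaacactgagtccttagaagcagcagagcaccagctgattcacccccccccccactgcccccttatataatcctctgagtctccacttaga
Ifit1, chr19:34640689-34640888, plus strand: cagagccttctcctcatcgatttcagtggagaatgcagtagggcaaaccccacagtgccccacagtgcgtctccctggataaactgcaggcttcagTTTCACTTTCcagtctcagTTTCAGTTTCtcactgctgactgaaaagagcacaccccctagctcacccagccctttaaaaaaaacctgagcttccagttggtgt
Irgm1, chr11:48871421-48871620, minus strand: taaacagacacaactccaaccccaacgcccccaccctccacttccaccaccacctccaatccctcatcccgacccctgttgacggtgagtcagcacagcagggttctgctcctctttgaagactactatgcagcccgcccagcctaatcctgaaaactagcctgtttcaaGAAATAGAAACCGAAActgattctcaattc
Rsad2, chr12:26456453-26456652, minus strand: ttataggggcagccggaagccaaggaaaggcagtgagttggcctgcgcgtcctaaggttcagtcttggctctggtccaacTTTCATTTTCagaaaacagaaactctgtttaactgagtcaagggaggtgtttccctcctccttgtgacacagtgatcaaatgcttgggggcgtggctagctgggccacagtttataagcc
In Irgm1 the capitals are 2 overlapping ISRE matches. The sequences of 3 genes that did not pass the test of genotype follow, with ISRE and GAS matches in capitals. Gbp7 held 1 ISRE and 2 GAS motifs, and Irf1 and Isg20 each held 1 GAS motif and no ISRE. Irf1 had 2 annotated starts and Isg20 had 3, of which the start with a motif is shown.
Gbp7, chr3:142530136-142530335, plus strand: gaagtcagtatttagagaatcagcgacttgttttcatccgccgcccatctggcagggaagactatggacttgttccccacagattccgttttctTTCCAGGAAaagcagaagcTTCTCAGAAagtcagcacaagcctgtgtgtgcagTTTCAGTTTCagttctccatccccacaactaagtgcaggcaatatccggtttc
Irf1, chr11:53769814-53770013, plus strand: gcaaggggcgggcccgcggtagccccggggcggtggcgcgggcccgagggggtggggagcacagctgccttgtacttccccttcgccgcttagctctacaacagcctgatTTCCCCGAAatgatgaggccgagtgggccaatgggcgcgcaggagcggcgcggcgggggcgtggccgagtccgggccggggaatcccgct
Isg20, chr7:78913224-78913423, plus strand: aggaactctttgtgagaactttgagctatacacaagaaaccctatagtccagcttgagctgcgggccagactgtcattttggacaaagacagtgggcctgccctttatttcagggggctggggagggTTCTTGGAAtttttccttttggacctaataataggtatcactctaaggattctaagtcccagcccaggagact

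**Figure D1:**
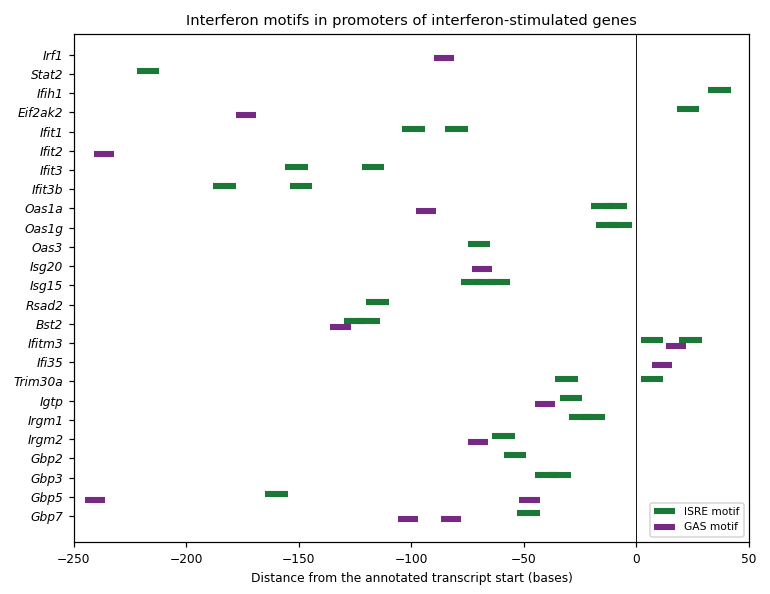
Position of ISRE (green) and GAS (purple) motifs in the promoters of interferon-stimulated genes. The horizontal axis is the distance from the annotated transcript start in bases, each row is 1 gene holding at least 1 motif, and bars mark the motif length. Most of the motifs lie before the start, and ISRE motifs are present in 21 of 34 genes.

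To ask whether interferon-stimulated genes differed between genotypes, levels in APPswe were compared with control by edgeR's quasi-likelihood test. Nearly the whole set was lower in APPswe. A gene was called when its Benjamini-Hochberg adjusted p was at most 0.05 and its change at least 2-fold. Of the 43, 27 were called lower and 0 higher, compared with 3.60% of all tested genes called lower and 3.74% called higher. No gene of the set was higher at an unadjusted p under 0.05 either, nor was any called higher by DESeq2 or limma. On the adjusted p alone 29 were lower and 0 higher, with a background of 12.0% and 10.5%. The log2 fold change was negative in 42 of 43, with a median of -1.57 and a range from -3.73 (Ifit3) to 0.11 (Isg20), whereas the median over all tested genes was -0.00. The 43 genes together made up 2530, 6090 and 2500 CPM in control replicates 1, 2 and 3 and 1360, 1360 and 1390 CPM in APPswe replicates 1, 2 and 3. The highest APPswe library was under the lowest control library in 39 of the 43 (90.7%), compared with 22.2% of tested genes, and under control replicates 1 and 3 in the same number (background 32.8%). For the first count Ifi204, Isg20, Gbp5 and Gbp7 were the exceptions.

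**Figure D2:**
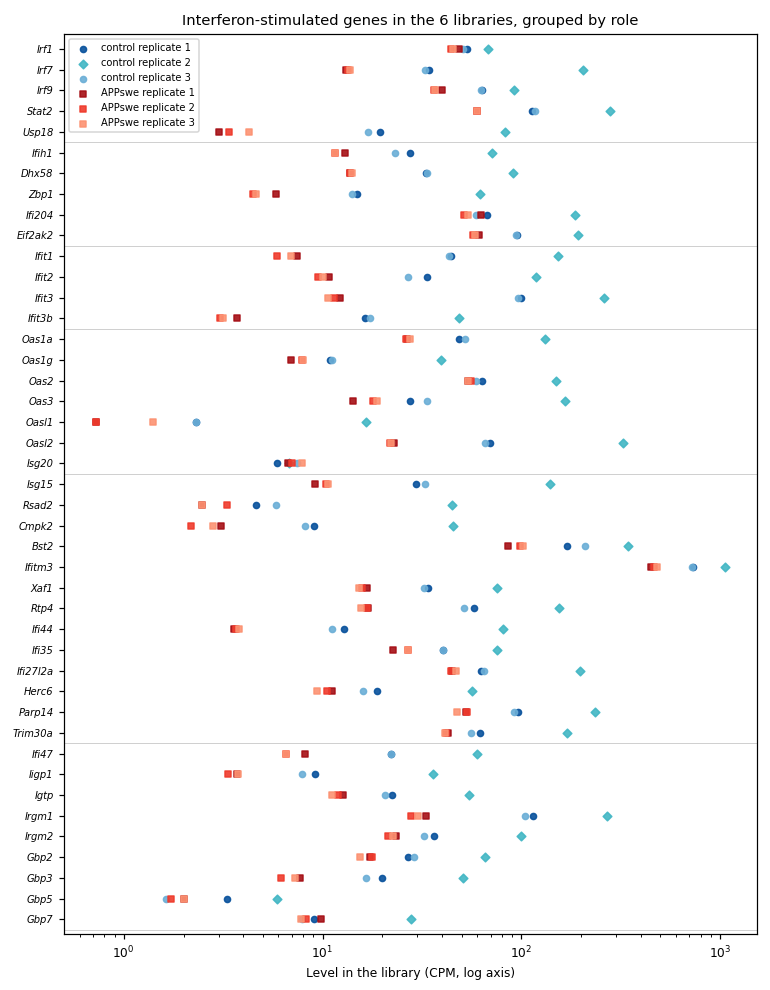
Level of each of the 43 genes in each library (CPM, log axis), with genes in rows grouped by role. Each point is 1 library, controls in blue and APPswe in red. The 3 APPswe points lie together at the left in most rows, and control replicate 2 (diamonds) is the highest of the 6 libraries in 42 of 43.

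When control replicate 2 was left out the direction was the same and the size smaller. In that fit 20 genes were called lower and 0 higher (background 6.58% and 4.87%), 37 were lower and 0 higher on the adjusted p alone (background 25.0% and 23.3%), and the median log2 fold change was -0.94. Of the 27 genes called with all 6 libraries, 19 were also called without control replicate 2, and the other 8 still passed the adjusted p. Oasl1 was called only without it. Fewer calls were made with fewer APPswe libraries, with 4 genes called lower when APPswe replicate 1, 2 or 3 was left out. Of all tested genes, 242, 237 and 230 were then called lower, compared with 486 with all 6 libraries. Leaving out control replicate 1 or 3 instead gave 30 and 31 genes called lower, with 392 and 388 of all tested genes lower. Ifit1, Ifit3, Ifit3b and Irgm1 passed the adjusted p in each of the 6 fits that left out 1 library.

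The library names are written in 2 styles, with a hyphen for control replicates 1 and 2 and APPswe replicate 1, and with a low line for the others. The name of control replicate 2 also carries the letter S, where the names of all other libraries carry an L. The labels do not say what the styles or the letters stand for. Within the hyphen style, APPswe replicate 1 against control replicate 1 gave a median log2 ratio of -0.94 and 41 of 43 genes lower. In the low line style, APPswe replicates 2 and 3 against control replicate 3 gave a median of -0.99 and 40 of 43 lower. With the style as a covariate and control replicate 2 left out, 21 genes were called lower and 0 higher (background 6.71% and 4.94%), and 40 were lower and 0 higher on the adjusted p (background 32.7% and 32.4%). With the style as a covariate and all 6 libraries, 7 were called lower and 0 higher, while of all tested genes 370 were called lower and 418 higher.

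**Figure D3:**
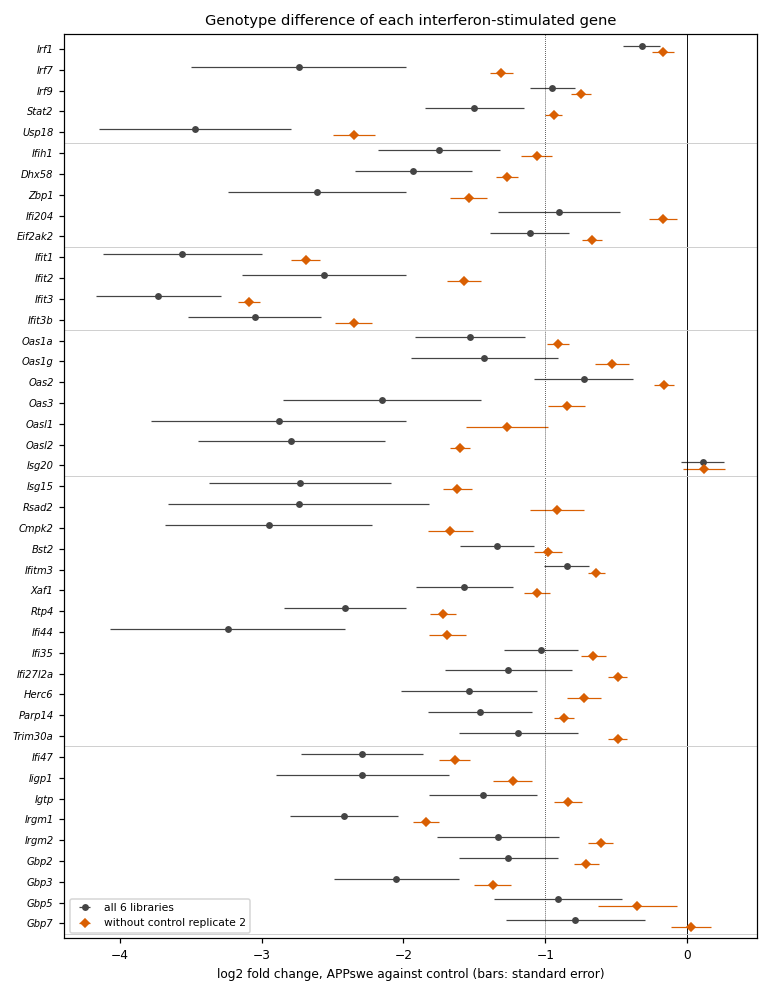
Log2 fold change of APPswe against control for each gene, with all 6 libraries (grey) and without control replicate 2 (orange). Bars are standard errors and the dotted line marks a 2-fold decrease. Without control replicate 2 the values move toward 0 and their standard errors shrink, and Isg20 and Gbp7 lie at or above 0.

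The IFIT proteins, which bind viral RNA and block its translation, had the lowest median log2 fold change of the 6 role groups. The 4 genes lie within 1 stretch of chromosome 19 (GRCm38) that also holds Ifit1bl1 and Ifit1bl2, from the start of Ifit2 at 34550550 to the end of Ifit1 at 34650009. All 4 were called in both fits, with a median log2 fold change of -3.30 with all libraries and -2.52 without control replicate 2. Ifit3 was at 99.8, 261 and 95.9 CPM in control replicates 1, 2 and 3 and at 12.2, 11.4 and 10.7 CPM in APPswe, the order kept below. Its log2 fold change was -3.73 ± 0.44 (SE, adjusted p = 0.00267 by edgeR), a 13.3-fold decrease, and -3.09 ± 0.08 (adjusted p = 1.57e-09) without control replicate 2. No APPswe library came near any control. Ifit1 was at 44.1, 152 and 43.2 CPM in control and at 7.46, 5.91 and 6.91 CPM in APPswe, with a log2 fold change of -3.56 ± 0.56 (adjusted p = 0.00695 by edgeR) and -2.69 without control replicate 2. Ifit3b was at 16.3, 48.3 and 17.4 CPM in control and at 3.70, 3.06 and 3.15 CPM in APPswe (log2 fold change -3.05, and -2.35). In both genes every APPswe library lay far below every control. Ifit3 and Ifit3b shared 31.7% and 27.4% of their 100-base windows with each other, so reads could have been divided between them. Ifit2, at 33.6, 119 and 27.0 CPM in control, was at 10.8, 9.53 and 10.1 CPM in APPswe and had the smallest decrease of the family (log2 fold change -2.56, and -1.57 without control replicate 2).

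Among regulators of the pathway, 3 of 5 were called lower and Irf9 passed on the adjusted p. Usp18 removes ISG15 from proteins and restrains the receptor IFNAR2. It was at 19.5, 82.6 and 17.0 CPM in control and at 3.03, 3.40 and 4.27 CPM in APPswe, a log2 fold change of -3.47 ± 0.68 (adjusted p = 0.0149 by edgeR) and -2.35 without control replicate 2. Irf7, the transcription factor that amplifies type I interferon production, was at 34.1, 203 and 32.7 CPM in control and at 13.1, 13.5 and 13.8 CPM in APPswe. Its standard error was large with control replicate 2 (log2 fold change -2.74 ± 0.76, adjusted p = 0.0429 by edgeR) and small without it (-1.31 ± 0.08, adjusted p = 5.67e-07). Both components of ISGF3 in the set were also lower. Stat2 was at 113, 278 and 117 CPM in control and 59.7 CPM in each APPswe library (log2 fold change -1.50, and -0.94 without control replicate 2). Irf9 was at 63.5, 91.6 and 62.8 CPM in control and 39.7, 36.3 and 36.7 CPM in APPswe, a decrease under 2-fold in both fits (-0.95 and -0.75).

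Sensors of foreign nucleic acid were called lower in 4 of 5. Zbp1, a receptor for Z-form nucleic acid, was at 14.9, 61.9 and 14.0 CPM in control and at 5.83, 4.46 and 4.61 CPM in APPswe, a log2 fold change of -2.61. Dhx58, which encodes the RIG-I-like helicase LGP2, was at 33.3, 91.1 and 33.5 CPM in control and at 13.8, 13.7 and 14.0 CPM in APPswe (-1.93). The APPswe values of these genes lay within a narrow band below the lowest control. Ifih1, which encodes the RNA sensor MDA5, was at 27.5, 71.3 and 23.1 CPM in control and at 13, 11.6 and 11.6 CPM in APPswe (-1.75). Eif2ak2, the kinase PKR that halts translation on double-stranded RNA, was at 95.1, 193 and 93.6 CPM in control and at 61.2, 57.3 and 58.5 CPM in APPswe (-1.11). In the fit without control replicate 2, Zbp1, Dhx58 and Ifih1 were still called (-1.54, -1.27 and -1.06), and Eif2ak2 passed the adjusted p at -0.67.

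The oligoadenylate synthetases, which activate RNase L on double-stranded RNA, and their relatives were less uniform. With all libraries 2 of 7 genes in the group were called. Oasl2 was at 69.8, 326 and 65.6 CPM in control and at 22.8, 21.8 and 22.1 CPM in APPswe (log2 fold change -2.79, and -1.60 without control replicate 2). Oas1a was at 48.8, 132 and 52.2 CPM in control and at 26.6, 26.4 and 27.4 CPM in APPswe (-1.53, and -0.91). In both genes the APPswe libraries lay close together below the controls. Oas1a shared 40.9% of its windows with Oas1g, which did not pass in edgeR with all libraries (-1.43, adjusted p = 0.0939) and passed at -0.53 without control replicate 2. Oas3 and Oasl1 likewise missed the threshold in edgeR with all libraries and passed without control replicate 2, at -0.85 and -1.27. With DESeq2 and all libraries Oas1g, Oas3 and Oasl1 passed (adjusted p = 0.0134, 0.0365 and 0.00153). Oas2 passed in neither edgeR fit.

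Of 13 other antiviral and induced proteins, 8 were called lower and Ifitm3 passed on the adjusted p alone. Isg15, a ubiquitin-like modifier, was at 29.4, 139 and 32.7 CPM in control and at 9.14, 10.4 and 10.7 CPM in APPswe, a log2 fold change of -2.73 ± 0.64 (adjusted p = 0.0259 by edgeR) and -1.62 without control replicate 2. Ifi44 was at 12.8, 80.8 and 11.2 CPM in control and at 3.59, 3.68 and 3.82 CPM in APPswe (-3.24, and -1.69). Cmpk2, a mitochondrial nucleotide kinase, was at 9.01, 45.1 and 8.13 CPM in control and at 3.08, 2.17 and 2.81 CPM in APPswe (-2.95, and -1.67). For these genes control replicate 2 alone was several-fold above the other controls, yet those controls were still above every APPswe library. Rtp4 was at 57.6, 154 and 51.2 CPM in control and at 17.0, 16.7 and 15.6 CPM in APPswe (-2.41, and -1.72). Bst2 encodes tetherin, which holds budding virus at the cell surface, and it was called at -1.34, with -0.98 without control replicate 2. Xaf1, Parp14 and Ifi35 were called too, at -1.57, -1.46 and -1.03, with -1.06, -0.87 and -0.66 without control replicate 2. Herc6, Rsad2, Ifi27l2a and Trim30a missed the threshold in edgeR with all libraries and passed without control replicate 2, at -0.73, -0.92, -0.49 and -0.49. Herc6 and Trim30a passed in DESeq2 with all libraries (adjusted p = 0.00288 and 0.00809).

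Interferon-induced GTPases, which attack vacuoles that hold pathogens, were called lower in 6 of 9. Irgm1, a regulator of the immunity-related GTPases, was at 115, 269 and 104 CPM in control and at 33.1, 27.9 and 30.3 CPM in APPswe, a log2 fold change of -2.42 ± 0.38 (adjusted p = 0.00688 by edgeR) and -1.84 without control replicate 2. Ifi47 was at 22.2, 59.9 and 22.1 CPM in control and at 8.13, 6.57 and 6.57 CPM in APPswe (-2.29, and -1.64). Iigp1 was at 9.12, 36.0 and 7.84 CPM in control and at 3.70, 3.34 and 3.76 CPM in APPswe (-2.29, and -1.23). All of the APPswe libraries were below all of the controls for each. Gbp3 was at 20, 51.0 and 16.6 CPM in control and at 7.74, 6.18 and 7.30 CPM in APPswe (-2.05, and -1.37). Igtp and Gbp2 were called at -1.44 and -1.26, with -0.84 and -0.71 without control replicate 2. Irgm2 missed the threshold in edgeR with all libraries (-1.33), passed without control replicate 2 (-0.61), and passed in DESeq2 with all libraries (adjusted p = 0.00392). Gbp2, Gbp3, Gbp5 and Gbp7 lie within 1 cluster on chromosome 3, from 142496934 to 142638008, where Gbp2 and Gbp3 were called and Gbp5 and Gbp7 did not pass.

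A total of 6 genes passed the adjusted p in edgeR neither with all libraries nor without control replicate 2: Isg20, Irf1, Gbp7, Gbp5, Ifi204 and Oas2. With the name style as covariate and without control replicate 2, Irf1, Ifi204 and Oas2 passed at small values of -0.15, -0.14 and -0.15 (adjusted p = 0.0109, 0.0178 and 0.00979 by edgeR), and Gbp5 passed without control replicate 3 (-1.26). Isg20, an exonuclease that degrades single-stranded RNA, was at 5.89, 6.75 and 7.45 CPM in control and at 6.73, 7.02 and 7.92 CPM in APPswe (log2 fold change 0.11 ± 0.15, adjusted p = 0.644 by edgeR, and 0.12 ± 0.15 without control replicate 2). It was the only gene of the 43 with a positive value in every alternative and the only one not highest in control replicate 2. Irf1, a transcription factor whose induction by interferon gamma is well known, was at 53.4, 68.0 and 50.6 CPM in control and at 48.6, 44.3 and 45.3 CPM in APPswe. The controls all lay above APPswe, but the log2 fold change was -0.32 ± 0.13 (adjusted p = 0.118 by edgeR) and -0.17 ± 0.08 (adjusted p = 0.0845) without control replicate 2. Gbp7 was at 9.07, 28 and 7.90 CPM in control and at 9.87, 8.30 and 7.75 CPM in APPswe, so that control replicates 1 and 3 overlapped with APPswe. Its log2 fold change went from -0.79 ± 0.49 with all libraries to 0.03 ± 0.14 without control replicate 2. Ifi204, a DNA-binding protein of the PYHIN family, was at 66.8, 187 and 59.3 CPM in control and at 62.4, 51.2 and 53.9 CPM in APPswe (-0.90, and -0.17). Oas2 was at 63.0, 150 and 58.9 CPM in control and at 54.0, 55.5 and 54.1 CPM in APPswe (-0.73, and -0.16). In Ifi204 the APPswe libraries overlapped with control replicates 1 and 3, and in Oas2 they lay just below them. Gbp5 was low, at 3.29, 5.90 and 1.64 CPM in control and at 2.02, 1.73 and 2.02 CPM in APPswe (-0.91 ± 0.45, and -0.35 ± 0.28), which leaves a wide interval. Of these 6 genes, 4 had a promoter in the table (Isg20, Irf1, Gbp7 and Gbp5), and all 4 held a GAS motif, compared with 8 of the 30 other genes with a promoter. This split by outcome was made after the values were seen and is a description without a test.

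Among the controls, replicate 2 was at least 2-fold above both others in 36 of 43 genes (83.7%), compared with 3.79% of tested genes, and was the highest of all 6 libraries in 42 (97.7%, background 28.0%). Its ratio to the mean of control replicates 1 and 3 ranged from 1.01 (Isg20) to 8.58 (Rsad2) with a median of 2.82, while the median over all tested genes was 0.991. The gene with the top ratio, Rsad2, encodes viperin, which makes a chain-terminating nucleotide against viral polymerases. Rsad2 was at 4.62, 44.7 and 5.81 CPM in control and at 2.47, 3.29 and 2.47 CPM in APPswe. The ratio was 5-fold or more in 6 genes, which were Rsad2, Oasl1 (7.12), Ifi44 (6.74), Irf7 (6.07), Oas3 (5.39) and Cmpk2 (5.27). It was under 1.5-fold in Isg20, Irf1 (1.31), Irf9 (1.45) and Ifitm3 (1.47). Leaving control replicate 2 aside, replicates of a genotype were close: the higher over the lower of control replicates 1 and 3 had a median of 1.07, and the highest over the lowest APPswe library a median of 1.15. What sets control replicate 2 apart was not tested.

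Levels between genes were compared per length, in FPKM, the authors' fragment counts scaled by gene length and library size. Ifitm3, which blocks entry of virus at endosomes, was the most abundant of the 43 in every library, with a mean of 2080 FPKM in control and 1230 FPKM in APPswe. The control mean of the others depended on replicate 2. Ifi27l2a was at 287, 909 and 308 FPKM in control and Bst2 at 298, 607 and 370 FPKM, so that Ifi27l2a was above Bst2 by its mean (501 against 425 FPKM) and below it in control replicates 1 and 3. Isg15 was at 57.2, 270.2 and 64.0 FPKM in control, and the control means of Rtp4 and Ifit3 were 94.1 and 85.6 FPKM. The order of Isg15, Rtp4 and Ifit3 in control lay within their spread. In APPswe Ifi27l2a was at 226 FPKM and Bst2 at 178 FPKM without overlap, while Isg15 was at 20.8 FPKM, Rtp4 at 17.3 FPKM and Ifit3 at 6.78 FPKM. Gbp5 was lowest per length in control, at 1.28 FPKM. The most abundant gene was thus among those with a decrease of less than 2-fold, with a log2 fold change of -0.85 ± 0.16 (adjusted p = 0.0133 by edgeR).

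Other genes of the pathway were examined by the same fit, upstream to downstream. Of 21 interferon genes listed, 5 had a row and none passed the filter. Ifnb1 was at 0.225 CPM in control replicate 2 and at 0 in the other 5 libraries, where 3 counts would be the limit. Ifnz was between 0.0564 and 0.169 CPM in all libraries, Ifna16 was at 0.0557 CPM in APPswe replicate 2 and otherwise 0, and Ifne and Ifnk were at 0. These 5 genes were at or near the limit of detection in every library, and the other 16 were not analysed here. The receptors were well expressed and 0 of 5 passed the test with edgeR, with 1 at an unadjusted p under 0.05. DESeq2 likewise passed 0, and limma on log2(FPKM + 1) passed 1 as higher (Ifnar2). Ifnar1 was at 128, 127 and 131 CPM in control and at 143, 146 and 141 CPM in APPswe (log2 fold change 0.16 ± 0.06, adjusted p = 0.117 by edgeR). The values of Ifnar2, Ifngr1, Ifngr2 and Il10rb were 0.18, 0.06, -0.07 and -0.21. Without control replicate 2, Il10rb passed at -0.32, and Ifnlr1, at 0.169 to 0.790 CPM, was called at -1.26.

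Of 11 JAK-STAT transducers and inhibitors, edgeR called 0 lower, with 3 lower at an unadjusted p under 0.05, and called 1 higher. Of all tested genes edgeR called 3.60% lower and 3.74% higher. DESeq2 called 1 lower and 1 higher of the 11. Without control replicate 2, edgeR called 0 lower and 1 higher (background 6.58% and 4.87%). On the adjusted p alone 3 were then lower and 4 higher (background 25.0% and 23.3%). Socs1, a feedback inhibitor of JAK kinases, was called higher, at 1.91, 2.53 and 3.27 CPM in control and 3.53, 6.96 and 6.41 CPM in APPswe (1.13 ± 0.33, adjusted p = 0.0489 by edgeR). The related Socs3 was higher on the adjusted p alone (0.93), and the phosphatase Ptpn6 was lower (-0.81). Jak1 and Tyk2 gave -0.03 and -0.11.

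Sensors and adaptors upstream of interferon were called lower in 3 of 15: Ddx58 (-1.38), which encodes RIG-I, and the endosomal RNA receptors Tlr3 (-1.23) and Tlr7 (-1.25). Without control replicate 2 all of these passed the adjusted p at less than 2-fold. Of 15 genes of MHC class I presentation, 4 were called lower and 12 passed the adjusted p lower, and 4 and 14 without control replicate 2. Of all tested genes 3.60% were called lower and 12.0% passed lower, and 6.58% and 25.0% without control replicate 2. B2m, the invariant light chain, fell from 1840, 1800 and 1790 CPM in control to 804, 763 and 738 CPM in APPswe (log2 fold change -1.23 ± 0.07, adjusted p = 0.000407 by edgeR). For B2m, unlike most of the 43 genes, control replicate 2 lay with the other controls. H2-Q4, H2-Q6 and H2-Q7 were called at -1.61, -2.34 and -2.06. These related class Ib genes may share reads, which was not measured.

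In a longer list of 60 further interferon-induced genes, 52 were tested, of which 21 were called lower and 1 higher, with a median log2 fold change of -1.13. The background was 3.60% called lower and 3.74% called higher. Without control replicate 2, 11 were called lower and 1 higher (background 6.58% and 4.87%), with a median of -0.58. On the adjusted p alone 38 were then lower and 5 higher (background 25.0% and 23.3%). Direction turned for Ly6e (-0.63 with all libraries, and 0.48 with an adjusted p of 9.67e-05 by edgeR) and for the chemokine gene Cxcl10 (-1.40, and 0.65 with an adjusted p of 0.0281). Apol9a was at 14.1, 15.1 and 15 CPM in control and at 2.47, 2.06 and 2.64 CPM in APPswe (-2.62 ± 0.15, adjusted p = 0.000348 by edgeR, and -2.60). Apol9b was called at -3.27, and Tor3a and Gbp9 at -1.46 and -1.48, and each was called without control replicate 2 as well (-3.17, -1.29 and -1.35). In Apol9a the 3 controls were alike and the genotypes far apart. The GTPase gene Tgtp1 was at 2.89, 20.2 and 2.54 CPM in control and at 0, 0.111 and 0.112 CPM in APPswe, under the limit of 3 counts. Its relatives Tgtp2 and Gvin1 were called at -2.60 and -2.15. Phf11a, Phf11b and Phf11d were called at -2.17, -2.22 and -2.17. These 5 genes, Tgtp1 and Gbp8 were also called without control replicate 2. The remaining genes called lower lay between -1.56 and -1.06: Lgals3bp, Gbp6, Sp100, Parp12, Parp9, Slfn5, Samd9l, Gbp8, Nmi, Ifi207 and Trim34a. All of these except Gbp8 passed only the adjusted p, at less than 2-fold, without control replicate 2. Ifitm1, a relative of Ifitm3, was the gene called higher, at 1.15, 1.07 and 1.58 CPM in control and 3.20, 2.79 and 3.43 CPM in APPswe (log2 fold change 1.30 ± 0.24, adjusted p = 0.0111 by edgeR). Over the pathway lists together 28 of 98 genes were called lower and 2 higher (background 3.60% and 3.74%). Without control replicate 2 these counts were 16 and 2 (background 6.58% and 4.87%). When any 1 APPswe library was left out, 10 were called lower.

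**Figure D4:**
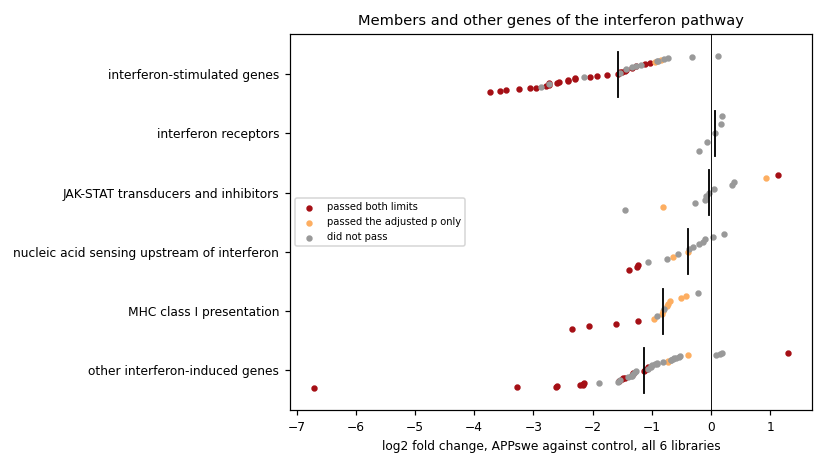
Log2 fold change of APPswe against control with all 6 libraries, for the 43 genes and the other lists of the interferon pathway. Each point is 1 gene, colored by whether it passed both limits, the adjusted p only, or neither, and black bars are medians. Receptors and JAK-STAT genes center near 0, and MHC class I and other induced genes lie mostly below 0.

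Cell type markers moved with genotype as well. Of 14 macrophage markers, 8 were lower on the adjusted p and Aif1 was higher (background 12.0% and 10.5%), with a median log2 fold change of -0.68. Without control replicate 2, 11 were lower and 2 higher (background 25.0% and 23.3%), with a median of -0.56. The macrophage markers summed to 24000, 18600 and 25600 CPM in control and 13000, 13900 and 14000 CPM in APPswe. Csf1r and Ptprc, the receptor for CSF1 and the leukocyte antigen CD45, gave -0.07 and -0.18. Without control replicate 2 they gave 0.23 and 0.04, and Csf1r passed as higher (adjusted p = 0.00556 by edgeR). In control replicate 2 the macrophage sum was below that of the other controls while the interferon-stimulated genes were above, although the median macrophage marker was at 684 CPM there against 562 and 569 CPM in the others. The summed level of 6 endothelial markers was 198, 26.8 and 206 CPM in control and 11.0, 9.97 and 11.4 CPM in APPswe. Osteoclast markers summed to 143 to 223 CPM in control and 646 to 662 CPM in APPswe. Skeletal muscle markers summed to 3.95 to 12.3 CPM in control and 177 to 184 CPM in APPswe. Siglech, the defining marker of plasmacytoid dendritic cells, was at 0 in all 6 libraries, and the 5 markers of these cells summed to 1.18 to 4.29 CPM, most of it Cox6a2. The sums of 8 neutrophil markers and of 9 T, B and NK cell markers were at most 2.60 and 3.20 CPM, with Nkg7 and Elane at 0 in every control. The part of any change in cell makeup in the lower interferon-stimulated genes was not tested.

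**Figure D5:**
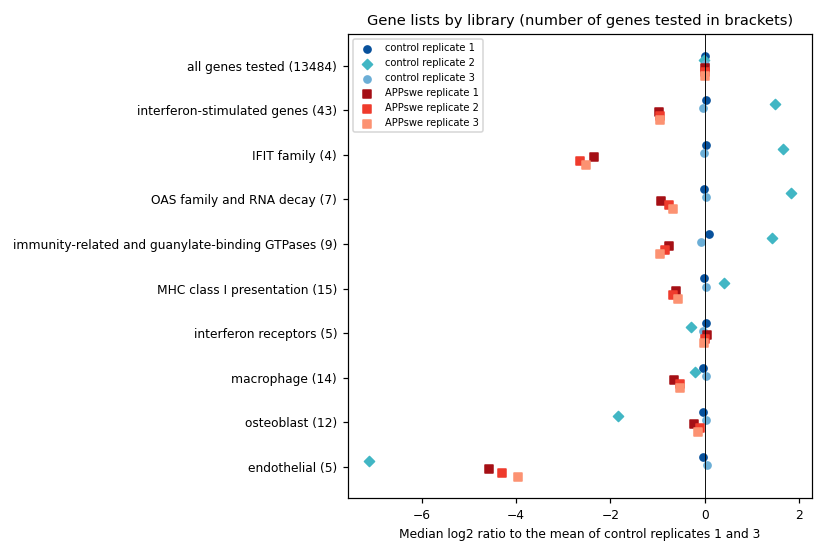
Median log2 ratio of gene lists in each library to the mean of control replicates 1 and 3, which lie near 0 by construction. Each point is 1 library, and the number of genes tested is in brackets. Control replicate 2 (diamonds) is at 1.49 for the 43 interferon-stimulated genes and the APPswe libraries at -0.98 to -0.94, while osteoblast and endothelial genes are low in control replicate 2.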

How the data were processed

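Messenger RNA was sequenced from 3 control and 3 APPswe libraries (SMARTER kit, DNBseq). The authors deposited raw counts per gene, and FPKM values they computed, whose blank cells were read as 0 because each has a count of 0. The aligner and counting tool are not given in the sources used here, and the submitters' processing notes name GRCm38. Columns of the authors' own comparison (log2 fold changes and p-values) were not used, and 0 sample columns were left unmapped. The interferon-stimulated genes and the other lists were chosen with earlier results of these data known. The test was edgeR 4.0.16 under R 4.3.3 (TMM, filterByExpr, quasi-likelihood test of genotype without covariate), where the study used DESeq2 and PoissonDis. P-values were Benjamini-Hochberg adjusted over all genes tested, and calls needed both an adjusted p no higher than 0.05 and a log2 fold change of 1 or more in either direction. The standard error is the log2 fold change over the square root of F. Alternatives used DESeq2 1.42.0, limma 3.58.1 on log2(FPKM + 1) or log2(FPKM + 0.1), other scaling, filters, covariates, and fits without 1 library. Per-library values were given for up to 4 genes per role with the largest passing change, all positive genes and those nearest 0, and from the other lists for called genes, receptors and ligands, with 1 gene of that rule not reported here. Not every called gene of the longer list is given per library. On simulated counts edgeR called 189 of 200 genes simulated to differ by 2 on the log2 scale, and 9 unchanged genes, of 13499. Shared sequence was the percentage of 100-base windows of a gene's longest transcript found in another gene (GENCODE M21). Gene coordinates and promoters are from RefSeq, GRCm38.p6. All 15 pairs of libraries differed beyond sampling noise, measured as chi-square per degree of freedom. APPswe replicates 2 and 3 were the most alike, at only 1.59. The other pairs of APPswe libraries gave 7.38 and 7.9, and control replicates 1 and 3 gave 6.17. The remaining pairs gave 76.2 to 110.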

Additional observations from a re-analysis of the deposited data

How the results depend on the processing

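Of the 43 genes, 38 had a negative log2 fold change in all 21 alternatives, Oasl1, Rsad2 and Gbp5 in each of the 18 or 20 that gave them a value, and Isg20 was positive in all. Gbp7, at -0.79, reversed to 0.03 without control replicate 2, 0.03 with DESeq2, 0.06 with limma on log2(FPKM + 1) and 0.07 with the name style as covariate, all without that library, and ranged from -1.10 to 0.03 when each library was left out. Those last 3 fits were chosen after seeing the data. No interferon-stimulated gene was called higher in any alternative. Counts of called genes are given as interferon-stimulated genes lower (main 27), pathway genes lower (28) and higher (2), and all genes lower (486) and higher (504). Testing against a 2-fold limit (glmTreat) gave 2, 5, 0, 72 and 147. The adjusted p alone gave 1622 lower and 1414 higher of all genes. At least 10 counts in every library gave 320 of all genes higher, and no filter gave 1 pathway gene higher. Limma on log2(FPKM + 1) gave 16 and 14 lower, and 182 lower and 322 higher of all genes, a different split. Without the filter it gave 12, 11, 170 and 305, and with a pseudocount of 0.1 it gave 15 pathway genes and 251 of all genes lower. The name style as covariate gave 7, 12 and 1. Without control replicate 2 and chosen later, the style covariate gave 16 and 1 pathway genes, 923 of all genes lower and a median log2 fold change of -0.97. DESeq2 then gave 14 pathway genes and 871 of all genes lower with a median of -0.94, and limma gave 15, 11, 1, 288 and 319 with a median of -0.79. Leaving out 1 library at a time gave 4 to 31 interferon-stimulated genes lower, 10 to 34 and 0 to 2 pathway genes, 230 to 905 and 281 to 670 of all genes, and medians from -1.85 to -0.94 (main -1.57). The causes were not tested, and the latter fits also hold fewer samples.

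No clear pairing by replicate number was seen: same-numbered deviations from the group means correlated at 0.0736, -0.0364 and 0.158. Differently numbered ones correlated at -0.22 to 0.116. Because control replicate 2 weighs heavily on the control mean, this check cannot exclude pairing. The replicate block gave 10 interferon-stimulated genes and 12 pathway genes called lower. Genes under the limit of 3 counts, such as the interferons, cannot be resolved at this depth.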
